A study of Mus musculus with 22 samples.

Results

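Lap2alpha regions were set against lamin A/C regions in wildtype (WT) fibroblasts of the mouse dermis, the skin layer whose matrix these cells make. The comparison took the 6 WT region lists of Lap2alpha (antibody 1H11) and lamin A/C (antibodies 3A6 and E1) out of 22 samples in the series, each at 16 and at 20 cycles of sonication. Lists were matched on cycles, which gave 4 pairs: Lap2alpha against 3A6 and against E1 at each length. Every Lap2alpha region that met a lamin A/C region by at least 1 bp was called shared, the others were Lap2alpha-only, and lamin A/C regions that met no Lap2alpha region were lamin-only. The Lap2alpha lists held 67557 regions at 16 cycles and 91620 at 20 cycles. The lamin A/C lists held 86033 and 182893 regions with 3A6 and 43798 and 144489 with E1.

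All 6 groups were unmodified for Lap2alpha (genotype WT) and were grown in DMEM with fetal calf serum. Chromatin was crosslinked with DSG and formaldehyde, precipitated and sequenced (ChIP-seq), which maps the genomic positions of a protein. The lists used from the rest of the series were WT BRG1 and CHD4 and lamin A/C in cells lacking Lap2alpha (KO). There was 1 library per genotype, antibody and sonication length, so no test was run. A mean ± SD over the 4 pairs gives the spread over antibody and sonication, and both lamin antibodies share the same Lap2alpha library in each length. None of the 22 samples is a precipitation with the Lap2alpha antibody in cells lacking the protein. Regions that this antibody would give without Lap2alpha are therefore unknown.

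Lap2alpha is the isoform of the LAP2 family that has no membrane anchor and lies throughout the nuclear interior, where it binds A-type lamins and the retinoblastoma protein. A-type lamins build the lamina under the nuclear envelope, which contacts large gene-poor stretches called lamina-associated domains, and a mobile fraction is found in the interior. BRG1 is the ATPase of the SWI/SNF remodellers and CHD4 that of the NuRD complex, and both are found at promoters and enhancers of the cell in which they are mapped.

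Single promoters show the 2 kinds of gene compared here. The windows of H2bc3, a replication-dependent histone gene, of Ankrd1, a YAP target, and of Dusp1, an immediate early phosphatase gene, came from genes with Lap2alpha at a gene end at both lengths and lamin A/C in none of the 4 lists. Those of Ins1, an insulin gene that skin fibroblasts do not use, and Zfp985, a zinc finger gene, came from genes with lamin A/C in all 4 lists and Lap2alpha in neither. Each is the RefSeq promoter window (GRCm38.p6) of 250 bases before to 50 after the start, read 5′ to 3′ on the gene's strand. Capitals mark CCAAT and TATAAA on either strand, the boxes counted further down. They lie at chr13:23746484-23746783 (plus strand), chr19:36119795-36120094 (minus), chr17:26508423-26508722 (minus), chr19:52264047-52264346 (plus) and chr4:147553027-147553326 (plus).
H2bc3: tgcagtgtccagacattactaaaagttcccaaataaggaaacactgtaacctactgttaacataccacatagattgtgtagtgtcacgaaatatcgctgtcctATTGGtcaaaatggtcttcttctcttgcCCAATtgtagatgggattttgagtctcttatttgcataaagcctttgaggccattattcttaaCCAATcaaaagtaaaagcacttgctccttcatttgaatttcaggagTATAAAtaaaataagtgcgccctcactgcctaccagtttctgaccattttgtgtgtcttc
Ankrd1: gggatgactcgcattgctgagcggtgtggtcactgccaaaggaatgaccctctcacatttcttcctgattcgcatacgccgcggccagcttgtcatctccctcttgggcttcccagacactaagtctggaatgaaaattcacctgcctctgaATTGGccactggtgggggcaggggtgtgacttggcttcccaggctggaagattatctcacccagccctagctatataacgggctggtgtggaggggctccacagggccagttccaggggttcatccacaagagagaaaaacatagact
Dusp1: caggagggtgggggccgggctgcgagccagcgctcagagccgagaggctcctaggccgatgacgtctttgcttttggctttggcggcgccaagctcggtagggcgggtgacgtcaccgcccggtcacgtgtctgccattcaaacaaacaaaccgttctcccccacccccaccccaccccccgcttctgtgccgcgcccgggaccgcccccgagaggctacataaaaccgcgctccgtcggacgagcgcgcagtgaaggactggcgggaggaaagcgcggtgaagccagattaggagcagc
Ins1: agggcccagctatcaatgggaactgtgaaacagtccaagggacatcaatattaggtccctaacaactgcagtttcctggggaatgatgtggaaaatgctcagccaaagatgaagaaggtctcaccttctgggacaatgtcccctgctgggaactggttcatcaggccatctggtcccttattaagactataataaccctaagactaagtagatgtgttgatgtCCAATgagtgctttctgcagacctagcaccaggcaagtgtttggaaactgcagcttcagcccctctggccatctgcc
Zfp985: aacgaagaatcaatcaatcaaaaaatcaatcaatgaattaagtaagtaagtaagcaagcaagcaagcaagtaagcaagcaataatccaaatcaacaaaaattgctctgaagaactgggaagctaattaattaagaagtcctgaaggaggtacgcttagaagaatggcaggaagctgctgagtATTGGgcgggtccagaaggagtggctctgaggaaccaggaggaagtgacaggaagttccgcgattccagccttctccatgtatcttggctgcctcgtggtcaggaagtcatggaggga
The H2bc3 window was 38% G and C, with 3 CpG dinucleotides. The Ankrd1 window was 54.7% and the Dusp1 window 67% G and C, the latter with 31 CpG. Ins1 stood at 48.3% with no CpG and Zfp985 at 44% with 6. A BRG1 region met the H2bc3, Ankrd1 and Dusp1 windows and neither of the others.

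The lists themselves set limits on what can be read from overlap, and those come first. The 3A6 list at 20 cycles covered 66.5 Mb, and the E1 list at 16 cycles 11.8 Mb, against 17.5 and 25.7 Mb for Lap2alpha at 16 and 20 cycles. Of the Lap2alpha regions at 16 cycles, 11.7% were met by a Lap2alpha region at 20 cycles, against 48.7% of 3A6 and 51.7% of E1 regions met by the other length of their own antibody. Where a Lap2alpha region met a 3A6 region, both had exactly the same centre in 86.4% to 88.8% of cases, and the same held for 70.4% to 81.5% of overlaps with BRG1 or CHD4. For Lap2alpha against E1 the share was 0.050% to 0.37%. Within E1 it was 84.3% to 89.3%, so the WT lists fall into 2 families by the positions of their centres, E1 in one and all other antibodies in the other. The E1 lists were also the only WT lists used here that were deposited with overlapping intervals. No source used here says how the lists came to share centres. A difference between 3A6 and E1 in base-level overlap with Lap2alpha, BRG1 or CHD4 cannot be told apart from that split.

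Most Lap2alpha regions met no lamin A/C region. Of the Lap2alpha regions, 15.8% met 3A6 at 16 cycles (95% Wilson interval 15.5 to 16.1) and 19.5% at 20 cycles (19.2 to 19.8). With E1 the shares were 4.01% (3.86 to 4.158) at 16 cycles and 6.63% (6.47 to 6.79) at 20 cycles. The mean over pairs was 11.5% ± 7.35 (SD, n = 4 pairs), and 3.75% ± 2.12 when regions with identical centres were not counted, an alternative chosen after seeing the data. Most Lap2alpha regions did not meet the other Lap2alpha list either: 11.7% did at 16 cycles and 8.67% at 20 cycles. The 3A6 shares were above these and the E1 shares below, so a low share is not by itself a separation of the 2 proteins. Seen from the lamin side, 12.4% and 9.78% of 3A6 regions and 6.21% and 4.23% of E1 regions met Lap2alpha. Shared bases were nevertheless more frequent than lamin A/C coverage of the same chromosomes: 13.1% of Lap2alpha bases lay in 3A6 regions at 16 cycles, where lamin coverage weighted by Lap2alpha's own chromosome spread was 1.37%, a ratio of 9.56. At 20 cycles the 3A6 ratio was 5.54, and the E1 ratios were 3.03 and 1.71 at the shorter and longer sonication.

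On a coarser grid the ratio was lower in every pair. In tiles of 10 kb, where shared centres weigh less, 38.1% of tiles with Lap2alpha at 16 cycles also held 3A6, 1.42 times the chromosome-weighted share of all tiles. With 3A6 at 20 cycles the ratio was 1.15, and with E1 it was 1.51 and 1.18 at the shorter and longer sonication. In tiles of 100 kb it was 1.14, 1.04, 1.18 and 1.04 in the same order. At 10 kb the 2 antibodies, which differed at base level, gave nearly equal ratios. The chromosome-weighted lamin shares there were 17.3% to 32.1%, which puts a lower ceiling on the ratio than at base level. At 100 kb Lap2alpha lay in 17731 and 23280 of 26054 tiles at 16 and 20 cycles. Ratios at that size are thus held near 1 for any antibody and cannot tell antibodies apart.

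**Figure D1:**
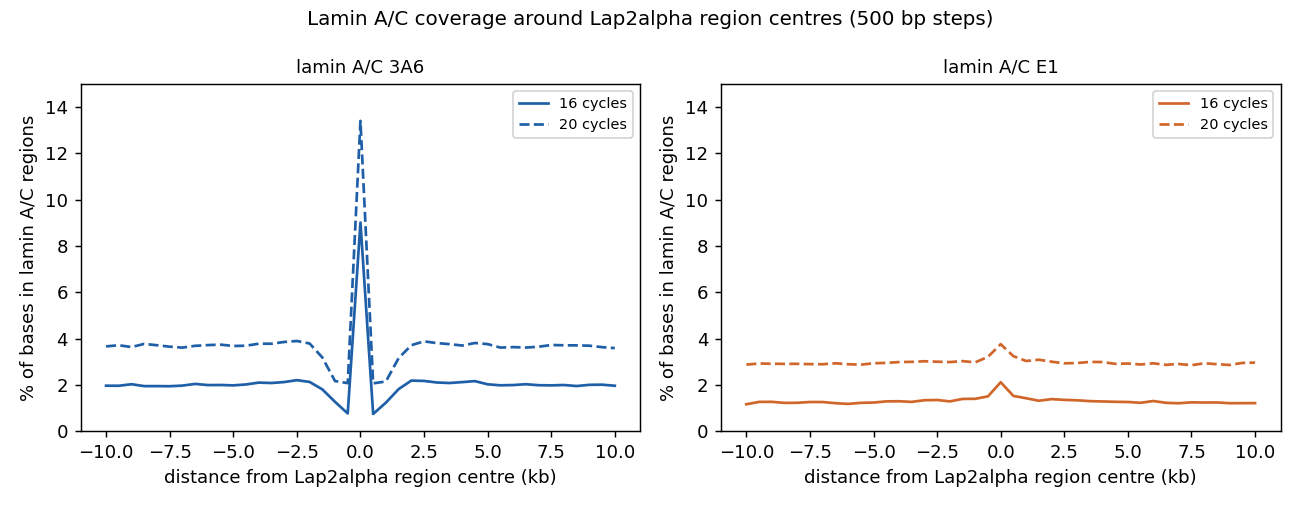
Share of bases inside lamin A/C regions (y axis, percent) by distance from the centre of Lap2alpha regions (x axis, kb), in windows of 500 bp, for 3A6 (left) and E1 (right) at 16 cycles (solid) and 20 cycles (dashed). Coverage peaked at the centre at 9.01% and 13.4% for 3A6 and at 2.11% and 3.76% for E1, and 3A6 was lower at 1 kb than at 20 kb.

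The profile of lamin A/C around Lap2alpha centres had a narrow peak and, for 3A6, a trough beside it. Coverage by 3A6 at 16 cycles was 9.01% at the centre, 1.25% at 1 kb and 1.96% at 20 kb. At 20 cycles it was 13.4%, 2.16% and 3.66% at the same distances. E1 showed a lower peak and no trough, with 2.11%, 1.41% and 1.22% at 16 cycles and 3.76%, 3.00% and 2.82% at 20 cycles. Many Lap2alpha regions lay far from lamin A/C: the median distance to the nearest lamin region was 8.88 kb for 3A6 and 23.6 kb for E1 at 16 cycles, and 22.4 kb and 59.9 kb at 20 cycles.

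Lap2alpha-only regions and lamin-only regions differed in gene density in every pair. Gene-rich bins were the 687 bins of 1 Mb, of 2706, with 11 or more protein-coding genes, and made up 25.4% of the span. Lap2alpha-only regions had 20.0% and 31.2% of their covered length there against 3A6 at 16 and 20 cycles, and 18.9% and 28.4% against E1. Lamin-only regions had 11.5%, 12.8%, 10.7% and 12.6%, so the highest lamin-only value was below the lowest Lap2alpha-only value. Lap2alpha-only exceeded lamin-only by 12.7 ± 5.15 points (SD, n = 4 pairs, higher in 4 of 4). At 16 cycles Lap2alpha-only regions were thus below the gene-rich share of the span and above it at 20 cycles.

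Gene-poor bins, the 891 with 2 genes or fewer, made up 32.9% of the span. They held 33.5%, 25.2%, 36.2% and 29.1% of Lap2alpha-only length in the order 3A6 at 16 and 20 cycles, then E1 at 16 and 20 cycles. They held 56.6%, 53.5%, 60.1% and 53.9% of lamin-only length, which left Lap2alpha-only lower by 25.1 ± 2.27 points. Lap2alpha-only regions also lay in gene bodies more often, by 15.2 ± 1.45 points, with 39.5% to 45.0% of regions there against 25.4% to 27.8% of lamin-only regions. The median distance to the nearest gene was 3.65 to 16.9 kb for Lap2alpha-only and 82.2 to 107.7 kb for lamin-only regions.

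Shared regions were close to lamin-only regions in gene density. By definition they lie at lamin A/C regions, so part of this likeness is built into the class. Their gene-rich share, on the Lap2alpha side, was 11.6% and 11.7% for 3A6 and 13.9% and 11.8% for E1 at 16 and 20 cycles. That was 12.4 ± 6.79 points below Lap2alpha-only regions (lower in 4 of 4 pairs) and 0.35 ± 1.97 points above lamin-only regions, a difference smaller than its spread and positive in 2 of 4 pairs. In gene-poor bins they had 52.9% to 55.0% of their length with 3A6 and 52.8% to 53.0% with E1. Their median distance to a gene was 79.7 to 91.1 kb, within 16.5 kb of lamin-only regions in every pair.

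**Figure D2:**
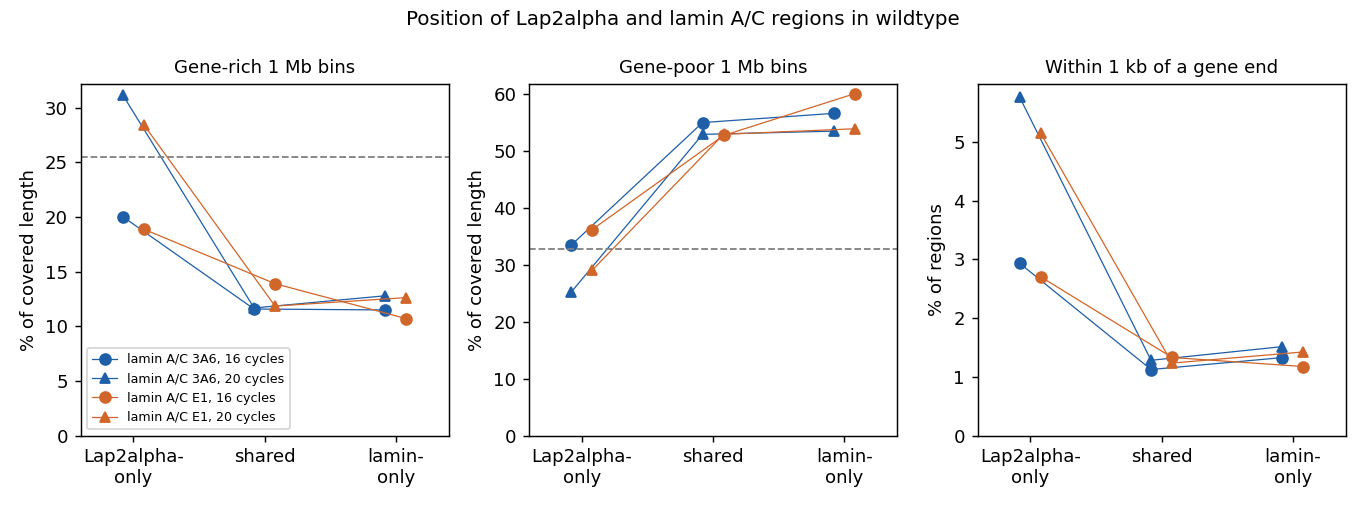
Share of covered length in gene-rich bins (left) and gene-poor bins (middle), and share of regions within 1 kb of a gene end (right), all in percent, for Lap2alpha-only, shared (Lap2alpha side) and lamin-only regions. Each point is 1 pair, lines join the classes of a pair, dashed lines mark the bins' share of the span (25.4% and 32.9%), and shared points sit beside lamin-only points in all 3 panels.

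The order held within chromosomes. The gene-rich share of Lap2alpha-only regions was above that of lamin-only regions on 20 and 20 of 20 chromosomes against 3A6 at 16 and 20 cycles, and on 19 and 19 against E1. Median differences over chromosomes were 8.46, 16.7, 7.54 and 13.3 points. Coverage of Lap2alpha at 20 cycles barely moved with gene number: relative to the list's mean over bins it was 0.86 in gene-free bins and 1.11 in bins with 21 genes or more. The Lap2alpha list at 16 cycles ran from 1.03 to 0.62 between the same bins, with its highest value, 1.21, in bins of 1 or 2 genes. Lamin A/C ran from 1.72 to 2.06 in gene-free bins down to 0.41 to 0.46 in the bins with 21 genes or more. The rank correlation of coverage with gene number over 2615 bins, given as a description, was -0.10 and 0.08 for Lap2alpha and between -0.41 and -0.34 for the 4 lamin lists.

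Widths differed little. The median width of Lap2alpha-only regions was 234 bp at 16 cycles and 268 bp at 20 cycles against either antibody. Shared Lap2alpha regions were wider, at 246 and 284 bp with 3A6 and 274 and 306 bp with E1, a difference of 26.5 ± 14.5 bp (wider in 4 of 4 pairs). Wider regions have more bases that can be met: in the narrowest quartile of Lap2alpha regions at 16 cycles 14.2% met 3A6, and in the widest quartile 18.2%. Lamin-only regions had medians of 248 and 318 bp with 3A6 and 252 and 314 bp with E1. A few widths recurred in the lists: 25% of Lap2alpha regions at 16 cycles were exactly 198 bp wide, and at 20 cycles 8.97% were 198 bp and 6.50% were 438 bp. These repeated values limit what a median width resolves.

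The chromosomes rich in Lap2alpha were largely those rich in lamin A/C. Chromosomes 8 and 19 stood at 2.34 and 2.37 times the list mean in regions per Mb for Lap2alpha at 16 cycles, and at 1.94 and 2.17 at 20 cycles. For lamin A/C the same chromosomes stood between 1.87 and 3.77. Chromosome 7 was lowest for Lap2alpha, at 0.25 and 0.55. Over 20 chromosomes Pearson's r between Lap2alpha and lamin A/C lists of the same length was 0.914 and 0.871 for 3A6 and 0.932 and 0.892 for E1, a description of densities that share chromosome composition. With CHD4 of the same length r was 0.837 and 0.736, and with BRG1 0.207 and 0.571. Chromosomes 8 and 19 were also above the list mean for BRG1 (1.24 to 1.67) and CHD4 (1.48 to 2.12). Their high density was thus not particular to Lap2alpha and lamin A/C.

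The X chromosome was denser in Lap2alpha than in lamin A/C of the same length. It carried 3.36 times the mean density of Lap2alpha at 16 cycles and 1.69 at 20 cycles, against 2.101 and 1.04 with 3A6 and 2.92 and 1.09 with E1. Of Lap2alpha-only length 21.4% and 11.3% lay on X against 3A6, and 22.0% and 11.22% against E1. Of lamin-only length 11.5% and 5.69% lay there with 3A6, and 17.6% and 6.29% with E1. The difference was 6.19 ± 2.51 points (higher in 4 of 4 pairs). All 3 antibodies had more on X at 16 than at 20 cycles, and pairing each Lap2alpha list with lamin A/C of the other length gave differences from -7.23 to 18.2 points, positive in 2 of 4 pairs. The direction on X was therefore uniform only between lists of equal sonication.

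**Figure D3:**
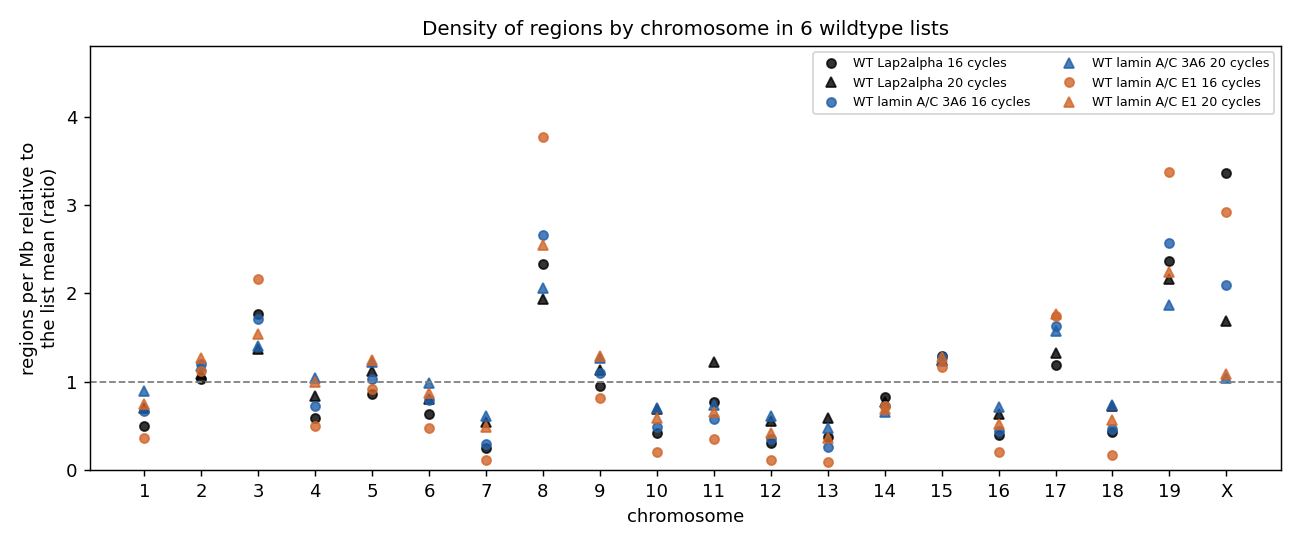
Regions per Mb relative to the list mean (y axis, ratio) on each chromosome (x axis) for Lap2alpha (black), 3A6 (blue) and E1 (orange) at 16 cycles (circles) and 20 cycles (triangles); the dashed line is the list mean. Chromosomes 8 and 19 were high in all 6 lists, and X reached 3.36 for Lap2alpha at 16 cycles.

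Gene ends, here 1 kb upstream and downstream of both boundaries of a protein-coding gene, were met most often by Lap2alpha-only regions. Of Lap2alpha-only regions 2.93% (2.80 to 3.08) met a gene end at 16 cycles against 3A6 and 5.76% (5.59 to 5.93) at 20 cycles, and 2.70% and 5.15% against E1. Of lamin-only regions 1.33% (1.25 to 1.41) and 1.52% (1.46 to 1.58) met one with 3A6, and 1.18% and 1.42% with E1. Shared regions had 1.13%, 1.28%, 1.33% and 1.23%. These windows made up 2.94% of the bases of the span. A region counts if 1 bp meets a window, which lifts its share above a share of bases. Even so, the Lap2alpha-only share at 16 cycles did not exceed 2.94%, and lamin-only regions were below it in every pair. The difference between Lap2alpha-only and lamin-only was 2.78 ± 1.41 points. Counted separately, start sites of the RefSeq promoter windows gave 1.67 ± 0.99 points and 3′ ends of genes with such a window 0.84 ± 0.32. These are other sets of windows and not parts of the gene-end difference.

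Gene by gene, a Lap2alpha region lay at an end of 1665 of 21631 protein-coding genes at 16 cycles (7.7%) and 4346 at 20 cycles (20.1%). For lamin A/C these were 966 (4.47%) and 1961 (9.07%) with 3A6 and 456 (2.11%) and 1515 (7%) with E1. Lap2alpha was present at both lengths at 611 genes (2.82%), of which 489 (2.26%) had lamin A/C in none of the 4 lists. Lamin A/C was in all 4 lists at 169 genes (0.781%), and 93 of them (0.43%) had Lap2alpha in neither list. All 6 lists were present at 22 genes (0.102%). With any list counted, 4632 genes (21.4%) had Lap2alpha alone, 1941 (8.97%) lamin A/C alone, 768 (3.55%) both and 14290 (66.1%) neither. Most of all genes thus had no lamin A/C at a gene end. Its absence at the 489 is not by itself a separation of the 2 proteins. Of the 489 genes 59 lay on X (12.1%, where 4.47% of all genes lie), 54 on chromosome 3 and 40 on chromosome 13. Of the 93 genes 28 lay on chromosome 2, 11 on chromosome 19 and 10 on chromosome 17.

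The Lap2alpha group, which by its definition has no lamin A/C at gene ends, was ranked by the widest gene-end region at the length where that region was narrower. Ankrd1 (chromosome 19, 36111965 to 36119844, GRCm38), a stretch-responsive cofactor gene, had regions of 1957 bp at 16 cycles and 1676 bp at 20 cycles. Dusp1 (chromosome 17, 26505591 to 26508472), which encodes a phosphatase that inactivates MAP kinases, had 1698 and 1421 bp. Hspa5, the endoplasmic reticulum chaperone BiP, had 910 and 1032 bp, and Anxa1, annexin A1, had 784 and 1440 bp. The actin-binding thymosin gene Tmsb4x on X had 726 and 1408 bp. The RNA helicase gene Ddx5 had 724 and 764 bp and the stress transcription factor gene Atf4 684 and 726 bp. The histone genes H1f4 and H2bc6 shared 1 region of 802 and 780 bp, and H2bc3 had 1154 and 680 bp. 

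Of the 93 genes of the lamin group, 40 were olfactory or vomeronasal receptors, families of 1110 and 353 among the 21631 genes. Of the 489 Lap2alpha genes 2 were. The 10 named by rule were led by Zfp985 (chromosome 4, 147553277 to 147585201), whose widest regions were 752 and 1040 bp with 3A6 and 502 and 984 bp with E1. The defensin gene Defb8 (chromosome 8) had 678, 862, 416 and 736 bp in the same order. Ins1 (chromosome 19, 52264297 to 52265015), which encodes insulin, had 636, 1328, 406 and 746 bp. The others were Ugt2b1, which encodes a glucuronosyltransferase, Esp4, Cyp2c39 and Cyp3a11 of the cytochrome P450 family, Pramel6, Zfp993, and the organic anion transporter gene Slco1a4, with regions of 298 to 1410 bp. At the 22 genes with all 6 lists, the named genes were Rtl4, Ms4a7, Cd209d, Slc10a2, Zfhx3, Chil3, Cyp3a16, Ms4a6c, Ugt2b36 and Zfp979. Their Lap2alpha regions were 198 to 508 bp wide.

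Gene bodies of at least 5 kb were compared by the percent of their length covered. Of 16781, coverage was higher for Lap2alpha than for lamin A/C in all 4 pairs over 3830 (22.8%) and lower in all 4 over 457 (2.72%). Thbs1, the matrix protein thrombospondin 1 (chromosome 2, 118111876 to 118127133), was 54.3% and 37.8% covered by Lap2alpha at 16 and 20 cycles and not at all by lamin A/C. Ankrd1 was 41.2% and 39.6% covered and the transcription factor gene Klf6 50.2% and 33.1%, the latter with 5.64% in the E1 list at 16 cycles and 0 in the other lamin lists. Vim, the fibroblast intermediate filament, was 33.1% and 19.4% covered. Myc stood at 23.2% and 31.3% and the prostaglandin synthase gene Ptgs2 at 40.9% and 20.2%. Ddx5, the kinase gene Plk2, the translation factor gene Eif4a2 and the haem oxygenase gene Hmox1 completed the 10, each with 0 in every lamin list.

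In the other direction Edn3, the endothelin 3 gene (chromosome 2, 174760619 to 174784042), was 1.61% and 5.32% covered by Lap2alpha. Lamin A/C covered 6.50% and 38.8% of it with 3A6 and 8.37% and 40.8% with E1. Cyp3a11, a liver cytochrome, stood at 0 and 3.84% against 7.79%, 39.4%, 9.22% and 28.7%. Cd209e and Aadacl3 had no Lap2alpha at either length, and lamin A/C covered 5.67% to 26.6% and 4.99% to 28.3% of them. Vat1l, Zfp982, the major urinary protein gene Mup5, Dok5, Sult1c1 and Cyp3a25 completed this group, with means of 1.25% to 5.00% for Lap2alpha and 17.9% to 23.3% for lamin A/C. By chromosome, genes higher for Lap2alpha made up 43.9% on X and 36.1% on chromosome 3, and 8.64% on chromosome 7. Genes higher for lamin A/C reached 7.59% on chromosome 19.

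**Figure D4:**
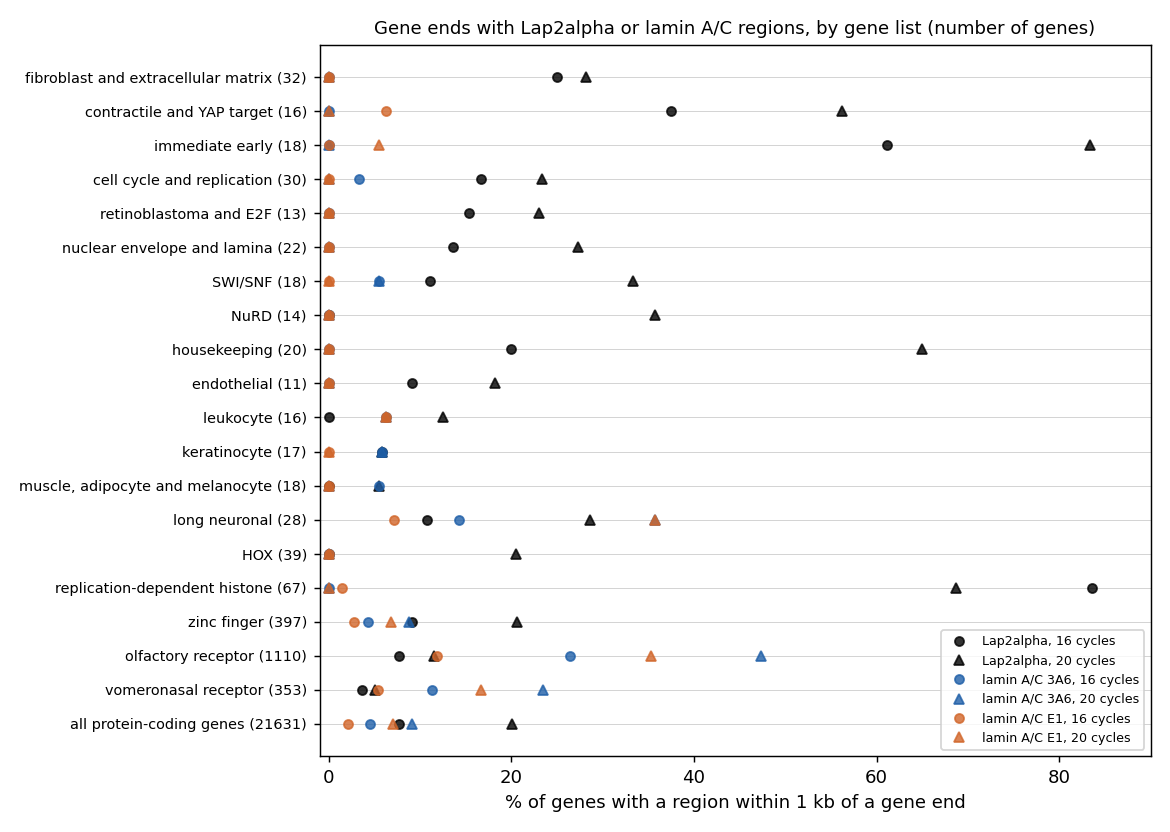
Percent of genes in each list (x axis) with a region within 1 kb of a gene end, for Lap2alpha (black), 3A6 (blue) and E1 (orange) at 16 cycles (circles) and 20 cycles (triangles); the number of genes stands beside each list name. Histone and immediate early genes lie far to the right for Lap2alpha (83.6% and 83.3% at most), and olfactory receptors do so for lamin A/C (47.4% at most).

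Replication-dependent histone genes, which supply histones during DNA synthesis and lie in clusters, had the highest Lap2alpha share of the 19 gene lists at 16 cycles. Of 67 genes 56 had a gene-end region at 16 cycles (83.6%) and 46 at 20 cycles (68.7%), against 7.7% and 20.1% of all genes. Both lengths held 43, and 42 of those had no lamin A/C. In the 4 lamin lists 0, 0, 1 and 0 histone genes had a region, where 4.47%, 9.07%, 2.11% and 7% of all genes did. The 67 genes are not independent, since 54 lie on chromosome 13 and neighbours share regions: there were 52 distinct regions at 16 cycles and 43 at 20 cycles. Chromosome 13 as a whole was low in Lap2alpha, at 0.37 and 0.59 times the list mean.

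Immediate early genes, which serum and stress switch on within minutes, stood at 61.1% and 83.3% for Lap2alpha (11 and 15 of 18 genes) and at 0, 0, 0 and 5.56% in the lamin lists. All genes stood at 7.7% and 20.1% for Lap2alpha and at 4.47%, 9.07%, 2.11% and 7% in the lamin lists. The lamin shares of the 18 genes were below those of all genes, but they rest on small counts, and the difference was not tested. Beside Dusp1, Jun had regions of 1484 and 1272 bp and a 236 bp region in the E1 list at 20 cycles, the 1 lamin case of the list. Egr1 had 704 and 648 bp, Fos 992 and 438 bp and Nr4a1 508 and 438 bp, with no lamin A/C. Contractile and YAP target genes stood at 37.5% and 56.2%. Among them the matricellular genes Ccn1 (1592 and 689 bp) and Ccn2 (1843 and 662 bp) and the caldesmon gene Cald1 (632 and 438 bp) followed Ankrd1, and Ccn1 had a 458 bp region in the E1 list at 16 cycles.

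Fibroblast and extracellular matrix genes had Lap2alpha at 8 and 9 of 32 gene ends (25% and 28.1%) and lamin A/C at 0 in all 4 lists. Of all genes 7.7% and 20.1% had Lap2alpha, and 4.47%, 9.07%, 2.11% and 7% had lamin A/C in the 4 lists. The lamin shares of this list were below those of all genes. With 32 genes the counts are small, and the difference was not tested. Fn1, fibronectin, had 752 and 438 bp, Vim 720 and 438 bp, the tenascin gene Tnc 264 and 438 bp, and Sparc 256 and 348 bp. The collagen genes Col1a2 (622 bp) and Col3a1 (430 bp) had a region at 16 cycles alone and Col1a1 (368 bp) at 20 cycles alone. Gene bodies of this list of at least 5 kb were 2.54% covered by Lap2alpha and 0.044% by lamin A/C on average, where all genes of that length stood at 0.85% and 0.41%. Housekeeping genes stood at 20% and 65% for Lap2alpha and 0 in the lamin lists, with Eef1a1 (508 and 782 bp), Eif4a2 (712 and 418 bp) and B2m (410 and 408 bp) among those present at both lengths.

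Lists of nuclear regulators followed, to be read beside the 7.7% and 20.1% of all genes with Lap2alpha at 16 and 20 cycles. Retinoblastoma and E2F genes stood at 15.4% and 23.1%, with E2f5 (310 and 288 bp) present at both lengths. Cell cycle and replication genes stood at 16.7% and 23.3%, with the replication clamp gene Pcna (232 and 260 bp) and the topoisomerase gene Top2a (316 and 404 bp). Nuclear envelope genes stood at 13.6% and 27.3%, with Nup98 and Syne1. Genes of SWI/SNF stood at 11.1% and 33.3%, with Pbrm1 (308 and 644 bp), and NuRD genes at 0 and 35.7%. HOX genes had none at 16 cycles and 20.5% at 20 cycles. Lamin A/C was at 0 in all 4 lists at gene ends of the retinoblastoma, nuclear envelope, NuRD and HOX lists, and at 1 gene each of the cell cycle and SWI/SNF lists. The lamin shares of all genes were 4.47%, 9.07%, 2.11% and 7%. The retinoblastoma, nuclear envelope, NuRD and HOX lists were below these shares. Each holds only 13 to 39 genes, so the counts are small, and the difference was not tested.

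Receptor families had more lamin A/C than Lap2alpha at gene ends in every pair. Of all genes 4.47% and 9.07% had 3A6 there, 2.11% and 7% had E1, and 7.7% and 20.1% had Lap2alpha. Of 1110 olfactory receptor genes, which lie in clusters and are silent outside the nose, 26.4% and 47.4% had 3A6 and 11.9% and 35.3% E1 at a gene end, against 7.75% and 11.5% for Lap2alpha. With any lamin list and no Lap2alpha there were 551, and with Lap2alpha and no lamin list 53. For 353 vomeronasal receptor genes these counts were 95 and 11. The 28 long neuronal genes had Lap2alpha at 10.7% and 28.6% of gene ends, 3A6 at 14.3% and 35.7%, and E1 at 7.14% and 35.7%. Their bodies were 3.15% covered by lamin A/C and 0.89% by Lap2alpha on average, with 7 higher for lamin A/C in all 4 pairs and 3 higher for Lap2alpha. Of 16 leukocyte genes, 2 had Lap2alpha and no lamin A/C, 13 had neither, and 1, the macrophage marker gene Adgre1, had lamin A/C in all 4 lists (276 to 628 bp) and no Lap2alpha. Among all genes 21.4% had Lap2alpha alone, 66.1% neither, and 0.43% lamin A/C in all 4 lists without Lap2alpha. Of 397 zinc finger genes 89 were on the Lap2alpha side and 32 on the lamin side, close to the 21.4% and 8.97% of all genes.

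The promoter windows of the gene groups differed in base composition. Of 21045 RefSeq windows of 300 bases, belonging to 17274 of the 21631 genes, 1329 (6.32%) met Lap2alpha in either list and no lamin list. They were 58.5% ± 9.93 G and C (SD over windows) with a median CpG observed-to-expected ratio of 0.72, and 83.6% met BRG1. The 647 windows with lamin A/C and no Lap2alpha were 46.1% ± 11.25 G and C with a ratio of 0.18, and 6.49% met BRG1. All windows stood at 56.4% ± 11.5, 0.57 and 47.0%. The 80 windows with Lap2alpha at both lengths and no lamin A/C were 55.4% ± 10.2 G and C with a ratio of 0.70. The 8780 windows with BRG1 and no Lap2alpha stood at 61.3% ± 9.13 and 0.77, above both Lap2alpha sets, so a high G and C content was not particular to Lap2alpha. The 61 windows with both Lap2alpha and lamin A/C stood at 46.6% ± 10.8, 0.21 and 16.4%.

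Of the letters searched on both strands, the GC box GGGCGG was in 57.5% of the 1329 Lap2alpha windows and 18.1% of the 647 lamin windows, with 46.7% of all windows and 65.0% of those with BRG1 and no Lap2alpha. The box TATAAA was in 11.5% and 26.4%, with 12.7% of all. In the 80 windows with Lap2alpha at both lengths and no lamin A/C, CCAAT was in 56.3% and TATAAA in 21.3%, with 38.5% and 12.7% of all windows. Histone genes contribute to this: 85.7% of their 63 windows held CCAAT and 55.6% TATAAA, as in the H2bc3 window shown above, and without them the shares were 50% and 15.2% of 66 windows. The motif TGANTCA of AP-1 was in 6.77% of the 1329 windows and 7.04% of all. A match is a run of letters in the window and not a measured site.

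Lap2alpha-only regions met the remodellers BRG1 and CHD4 more often than lamin-only regions did. Against 3A6, 14.0% (13.8 to 14.3) of Lap2alpha-only regions met BRG1 at 16 cycles and 24.1% (23.8 to 24.4) at 20 cycles. Of lamin-only regions 1.82% (1.72 to 1.91) and 4.97% (4.87 to 5.08) did. Shared regions lay between, at 6.25% and 7.22%. Against E1 the Lap2alpha-only shares were 12.8% and 21.8%, the shared ones 12.5% and 6.88% and the lamin-only ones 1.164% and 1.70%. The difference between Lap2alpha-only and lamin-only was 15.8 ± 4.47 points for BRG1 and 11.7 ± 1.46 for CHD4, positive in 4 of 4 pairs. BRG1, CHD4, Lap2alpha and 3A6 lists are all of 1 centre family, so the contrast within 3A6 does not cross the families, and that within E1 does.

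**Figure D5:**
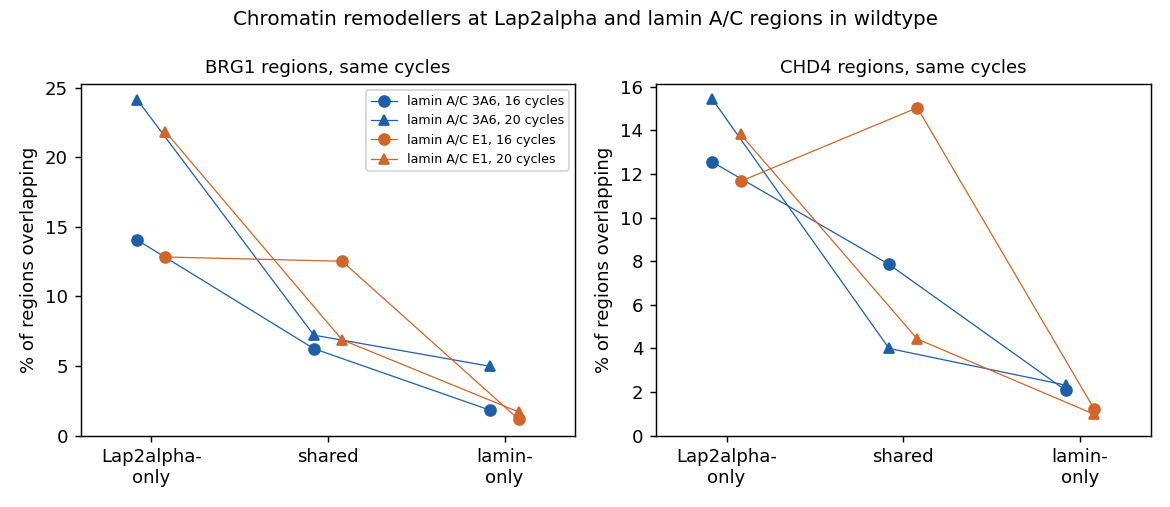
Percent of regions overlapping a BRG1 region (left) or a CHD4 region (right) of the same sonication length, for Lap2alpha-only, shared (Lap2alpha side) and lamin-only regions. Each point is 1 pair and lines join its classes; Lap2alpha-only regions are above lamin-only regions in all 4 pairs, and shared regions are between them except CHD4 with E1 at 16 cycles.

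The contrast was present within gene-poor and within gene-rich bins. These classes span 0 to 2 and 11 to 67 genes per bin, so gene density was not held equal inside them. In gene-poor bins 9.30% and 14.1% of Lap2alpha-only regions met BRG1 at 16 and 20 cycles against 1.31% and 4.42% of lamin-only regions with 3A6. In gene-rich bins these were 18.2% and 31.6% against 1.98% and 4.65%. At start sites 57.2% and 75.1% of Lap2alpha-only regions met BRG1, against 3.94% and 6.85% of lamin-only regions. For the 489 genes with Lap2alpha alone, BRG1 lay at a gene end of 79.8% and 91.8%, with 36.7% and 63.8% of all genes. For the 93 lamin genes it lay at 0 and 9.68%. BRG1 lay at 78.1% and 100% of fibroblast gene ends, against 6.25% and 62.5% of leukocyte and 5.88% and 52.9% of keratinocyte genes. Endothelial genes stood at 9.09% and 36.4%, and the muscle, adipocyte and melanocyte list at 22.2% and 44.4%. Housekeeping genes stood at 70% and 95%. A high share was thus not particular to fibroblast genes and does not check the cell type label.

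Positions that recurred across libraries showed the same order. Of the 7936 Lap2alpha regions found at both lengths, 4823 (60.8%) met no lamin list, 2967 (37.4%) met 1 to 3 and 146 (1.84%) met all 4. Those with no lamin A/C had 27.6% of their length in gene-rich bins, those with 1 to 3 lists 10.2%. Regions present in all 4 lamin lists without Lap2alpha, 1938 in number, had 12.0%. Gene ends were met by 6.24% (5.59 to 6.96), 1.18% (0.849 to 1.64) and 1.34% (0.917 to 1.96) of these 3 sets, and BRG1 at 20 cycles by 33.7%, 10.7% and 4.08%. The 146 sites with all lists had 25% of their length in gene-rich bins and 52.2% in gene-poor bins, the latter close to the 54.3% of sites with 1 to 3 lamin lists.

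Lamin A/C lists of KO cells were laid over the same WT Lap2alpha regions. At 16 cycles WT 3A6 met 15.8% of them and KO 3A6 14.4%, and at 20 cycles the pair was 19.5% (WT) and 17.0% (KO). With E1 the WT and KO shares were 4.01% and 5.00%, then 6.63% and 8.75%. KO lists were longer in every pair (107717 to 233769 regions), so these shares are not levels of lamin A/C. Where Lap2alpha regions at 20 cycles met KO 3A6 of that length, 41.2% had the same centre, against 86.6% with WT 3A6. The WT and KO difference in that pair cannot be told apart from the difference in shared centres. At Lap2alpha regions that met BRG1 the KO share was above the WT share in all 4 pairs. For 3A6 the WT and KO values were 7.69% and 14.7%, then 6.75% and 9.69% at the longer sonication. For E1 they were 3.92% and 6.10%, then 2.19% and 3.39%. At Lap2alpha regions without BRG1 the WT and KO values for 3A6 were 17.0% and 14.4%, then 22.9% and 18.9%. For E1 they were 4.02% and 4.84%, then 7.80% and 10.2%, so with E1 the higher KO share was not particular to regions with BRG1. At the gene ends of the 489 Lap2alpha genes KO lamin A/C was found at 23.3% and 14.7% with 3A6 and 6.75% and 5.11% with E1, where all genes stood at 22.4%, 18.1%, 7.10% and 13.5%.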

How the data were processed

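ChIP-seq region lists of WT Lap2alpha (1H11) and lamin A/C (3A6, E1) at 16 and 20 cycles were used, with WT BRG1 and CHD4 and KO lamin A/C as further readouts. Groups came from the sample titles. The authors deposited each list as intervals (chromosome, start and end, with no score, height or signal). Per the submitters' processing notes the build is GRCm38, and MACS2 2.1.4, HOMER 4.11.1, bedtools, SAMtools and deepTools are named. What each did, the threshold, the control and any pooling are stated in no source used here. Read depth is unknown from these lists, so a longer list may be a deeper or more loosely called library. Input libraries and KO BRG1 and CHD4 were not used here.

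Intervals of width 0 (42 to 901 in the 6 lists) and 1 mitochondrial interval were left out, and overlapping intervals were merged. Among the 6 lists only E1 had them, 16762 of 60691 listed intervals at 16 cycles and 111413 of 256803 at 20 cycles. Of the KO lamin A/C lists, both E1 lists and 3A6 at 20 cycles had them. The span is that of the outermost features per chromosome (2694.23 Mb). Genes were protein-coding RefSeq genes of GRCm38.p6, without chromosome Y for counts of genes, and promoter windows were RefSeq's. Chromosome-weighted coverage is lamin coverage per chromosome weighted by Lap2alpha length. Wilson intervals (95%) cover counting error only, and neighbouring regions are not independent. Named genes had Lap2alpha gene ends at both lengths and no lamin A/C, lamin A/C in all 4 lists and no Lap2alpha, or both, up to 10 each by the smallest widest-region width; gene bodies of 5 kb or more with one sign in all 4 pairs, the 10 largest differences each way; and up to 4 members per gene list present at both lengths or in all 4 lamin lists, ties and a few members beside them (Col1a1, Col1a2, Col3a1) chosen after their values were seen. Olfactory, vomeronasal and predicted genes were counted and not named, and 1 gene named by the rule is not reported here. The members, lists and rules were chosen with earlier results of these data known. Covered length, shared bases and counts of overlapping regions were tested on simulated intervals, where 80 of 80 quantities equalled a per-base count. Bin shares and gene-end counts were not part of that test. Python 3.11.15, numpy 2.4.6, pandas 2.3.3, scipy 1.17.1 and matplotlib 3.10.9 were used.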

Additional observations from a re-analysis of the deposited data

Results flagged for a closer look

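The X chromosome share of shared regions against Lap2alpha-only regions went in opposite directions at the 2 sonication lengths. At 16 cycles shared regions were higher by 5.93 percentage points on average over both lamin antibodies, and at 20 cycles the difference was -1.13 points. The gene-rich share of shared regions against lamin-only regions also changed direction, with 1.64 points at 16 cycles and -0.95 points at 20 cycles. Both antibodies moved the same way at each length for the X chromosome. Neither difference between sonication lengths was tested, since there is 1 library per antibody and length, and both antibodies share the Lap2alpha library of their length.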

How the results depend on the processing

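Of 55 alternative values for 7 results, 49 kept their direction and, for values over pairs, stayed within 1 SD of the 4 pairs, 4 moved further and 2 changed sign. Alternatives were intervals as listed, merging up to 1000 bp, equal numbers of the widest regions, 50% overlap, autosomes, the other sonication length, 200 bp windows at centres, 5 kb gene-end windows, 500 kb bins and, chosen after seeing the data, identical centres not counted. The share of Lap2alpha regions meeting lamin A/C was 11.5% and 3.75% without identical centres. The gene-end difference was 2.78 points and 7.55 with 5 kb windows. The number of genes with Lap2alpha at both lengths and no lamin A/C was 489, 323 with equal numbers of regions and 1766 with 5 kb windows, which reach more of the genome. The gene-rich difference of shared and lamin-only regions, 0.35 points, was -1.08 with the other sonication length and -0.24 with 500 kb bins, and reached 1.05 with 50% overlap, and the cause was not tested. The width difference of 26.5 bp fell to 16 bp with 200 bp windows. The X difference kept its mean with the other sonication length, 6.29 points, but was positive in 2 of 4 pairs. The gene-rich difference of Lap2alpha-only and lamin-only regions stayed between 11.6 and 14.5 points over its alternatives. No paired analysis was possible because each group is 1 library and the titles carry no replicate numbers. Leaving out a library was not possible either, and unknown depth limits every count of regions.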
